A study of Homo sapiens with 66 samples.

Results

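Replication-dependent histone genes encode the proteins that package new DNA, the core histones H2A, H2B, H3 and H4 and the linker histone H1. They were taken as the protein-coding genes whose current symbol is H1-1 to H1-6, or H2AC, H2BC, H3C or H4C followed by a number. The rule gave 70 genes among the 58051 genes of the count tables, of which 6 code for H1, 17 for H2A, 19 for H2B, 13 for H3 and 15 for H4. Identifiers of 66 matched the tables, H2AC18, H2AC19, H3C2 and H3C3 were not analysed here, and 54 passed the filter on low counts (4 of H1, 14 of H2A, 15 of H2B, 9 of H3 and 12 of H4).

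These genes are transcribed mainly in S phase, when DNA is copied, and nearly all of them lack introns. Their mRNAs end in a conserved stem-loop in place of a poly(A) tail. The stem-loop binding protein SLBP and the U7 small nuclear ribonucleoprotein, with its proteins LSM10 and LSM11, direct the cut that forms this end, and the mRNAs are degraded when replication stops.

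The study sequenced RNA, after depletion of ribosomal RNA, from 22 groups of 3 libraries. Every line derives from DLD-1, a human colorectal adenocarcinoma. In each tagged line both alleles of the named gene carried an auxin-inducible degron (AID), and the plant protein TIR1, which marks the tagged protein for degradation once auxin is present, was expressed from the RCC1 locus. Tagged lines were clones checked by PCR, and nothing in the labels says that replicates came from separate clones, so p-values measure the spread between these libraries. AID-TPR, NUP153-AID and NUP50-AID target proteins of the nuclear basket, RANGAP1-AID (labelled GAP1) the activator of the Ran GTPase, AID-NXF1 the main mRNA export receptor, and AID-GANP the scaffold of the TREX-2 export complex. By the labels, the AID tag of TPR, NUP153, NUP50 and RANGAP1 came with NeonGreen, a fluorescent protein. That of NXF1 came with a FLAG tag and that of GANP with an HA tag.

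AID-TPR cells were untreated or given 1 mM auxin for 2 h, in a first set of labels, and untreated or given auxin for 2 h or 8 h in a set labelled old. NUP153-AID and RANGAP1-AID cells were untreated or had auxin for 2 h or 8 h, NUP50-AID cells for 3 h or 9 h, AID-NXF1 cells for 2 h and AID-GANP cells for 3 h. DLD-1 cells without a tag, labelled original, were untreated or had auxin for 2 h. AID-TPR cells were also given Actinomycin D (ActD), an inhibitor of transcription, for 2 h without or with auxin, and the ActD group was compared with the untreated old AID-TPR libraries.

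Libraries held 18.9 to 55.4 M (mega) counts. The epithelial genes EPCAM (338 to 734 CPM, counts scaled to a common library total of 1 M) and CDH1 (419 to 791 CPM) were abundant in every library. So were KRT8, KRT18 and KRT19, while VIL1, another epithelial gene looked at, was low, at 1.34 to 29.6 CPM. Markers of blood cells, fibroblasts and endothelium reached at most 1.75 CPM. Auxin acts on the protein, and the mRNAs of the tagged proteins changed by -0.06 to 0.29 on the log2 scale, so they check no label. Reads were not all counted in the same way: H2AC7, H2AC15, H2AC17 and H3C4 were well counted in 33 libraries and stood at or near 0 in the 33 libraries of NUP153-AID, NUP50-AID, old AID-TPR and ActD. Levels of different genes are therefore compared separately within each way of counting.

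The stem-loop was read from GRCh38 within 150 bases after the stop codon, asking for at least 15 of the 16 bases of the histone stem-loop consensus. It was present in 69 of the 70 genes, all but H2BC12L, and in 24 (0.12%) of 19849 other protein-coding genes. The stem holds 6 base pairs and the loop 4 bases. The sequences shown are those of some of the members named below. Each has 5 bases on either side and the 16 bases of the stem-loop in capitals, 5′ to 3′. All lie in the 3′ untranslated end of the annotated exon.
H1-3: taaacGGCTCTTTTCAGAGCCaccca
H2AC4: gcaaaGGCTCTTTTCAGAGCCaccta
H2BC11: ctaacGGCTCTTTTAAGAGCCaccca
H3C6: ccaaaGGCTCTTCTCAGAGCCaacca
H4C2: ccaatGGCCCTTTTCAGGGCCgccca
H4C3: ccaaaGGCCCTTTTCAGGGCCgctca
H4C9: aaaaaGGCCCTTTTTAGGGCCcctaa
H4C13: tcaaaGGCCCTTCTCAGGGCCaccca
H4C16: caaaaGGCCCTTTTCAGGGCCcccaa

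The stem-loops of H1-3 (chr6:26234217-26234232), H2AC4 (chr6:26033098-26033113), H2BC11 (chr6:27132321-27132336), H4C2 (chr6:26026901-26026916) and H4C13 (chr6:27873153-27873168) lie on the minus strand of GRCh38. Those of H3C6 (chr6:26225596-26225611), H4C3 (chr6:26104317-26104332) and H4C9 (chr6:27139654-27139669) lie on the plus strand, and that of H4C16 (chr12:14770724-14770739) on the minus strand. Across the 69 genes there were 10 distinct stem-loops. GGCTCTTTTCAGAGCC was held by 40 genes, none of them H4, and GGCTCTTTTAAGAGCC by 9. Every H4 gene had a stem that opens with GGCCC, as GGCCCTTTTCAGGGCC in 10, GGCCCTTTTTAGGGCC in 4 and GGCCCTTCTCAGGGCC in H4C13 alone. Stem-loop and class therefore cannot be told apart for H4.

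The genes sit in 7 places of GRCh38. Chromosome 6 holds 34 between 25723397 and 26285638, 5 between 27125897 and 27147562 and 16 between 27807479 and 27893891. Chromosome 1 holds 11 between 149782689 and 149887965 and 2 between 228434777 and 228463104, chromosome 12 holds H4C16 and chromosome 21 H2BC12L. RefSeq promoters of GRCh38.p14, from 250 bases before to 50 after the start, matched 64 genes, and motifs were searched on both strands. CCAAT was present in every H1, H2A, H2B and H3 promoter matched, in 3 of 13 H4 promoters and in 34.6% of all 35116. The octamer ATTTGCAT was present in 11 of 16 H2A and 14 of 18 H2B promoters, in 1 of 11 of H3, in none of H1 or H4, and in 1.8% of all. AAACACA was present in all 6 H1 promoters and in 5.6% of all, and TATAAA in 65.6% of the members' and 11.5% of all. None of these motifs contains another, and a match is a description of the letters only.

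In untreated cells the histone genes together took 0.808% to 1.47% of all counts over 24 libraries. In the 15 untreated libraries of the first way of counting H2B took the largest share of these counts, 27.5% to 30.2%, followed by H2A with 21.7% to 24.5%. H4 took 15.4% to 20.9%, H3 14.9% to 17.3% and H1 11.7% to 16.9%, and the ranges of these last 3 classes overlap. In the 9 untreated libraries of the second, H2B took 29.9% to 32.4%, H2A 19.9% to 21.6%, H4 16.8% to 19.6%, H1 15.8% to 18.9% and H3 12.6% to 14.3%, and the ranges of H4 and H1 overlap.

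Per length, as FPKM (fragments per kilobase of exon, scaled to library size as CPM are) averaged over the 15 untreated libraries of the first way of counting, H1-2 (755) and H1-4 (586) were the highest linker histones. For H2A they were H2AC11 (847, lowest library 659 and highest 978), H2AC12 (801) and H2AC17 (501), and for H2B H2BC12 (763) and H2BC17 (538). H3C7 (594), H3C4 (550) and H3C12 (536) led H3, and H4C3 (926, from 764 to 1036), H4C2 (674) and H4C5 (645) led H4. The lowest library of H4C3 lay above the highest of H4C2 (748), while the ranges of H2AC11 and H2AC12 and of the 3 H3 genes overlap. In the 9 libraries of the second way the first of each class by mean FPKM were H1-2 (1109), H2AC11 (1383), H2BC12 (1023), H3C7 (951) and H4C3 (1216), while H2AC17 stood at 0.597. The length joins all annotated exons of a gene, 2881 bases for H2BC4 and 1250 for H3C10, against transcripts of 460 and 486 bases. FPKM over the shorter length would be higher, so ranks within a class depend on the annotation.

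Counts of single members differed between lines, also among lines counted in the same way, and the cause was not tested. H1-5 had 2 to 3 counts in each untreated AID-GANP library (0.0755 CPM) and 17 to 29 in untagged DLD-1 cells (0.645 CPM), and 295 to 569 CPM in the other lines and label sets. H2AC8 stood at 8.42 CPM in NUP50-AID and 8.59 CPM in RANGAP1-AID cells and at 22.8 to 46.5 CPM elsewhere. H2BC8, at 3.64 and 3.57 CPM in these same lines, stood at 10.1 to 22.9 CPM elsewhere. H1-5 was left out of class medians in AID-GANP and DLD-1 cells, since medians cover members with a mean of at least 50 counts in the 6 libraries compared.

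Changes were tested in edgeR by quasi-likelihood, with p-values adjusted after Benjamini and Hochberg over 17812 genes. Calls needed both an adjusted p below 0.05 and a change past 1.3 times (log2 0.38) upwards or 0.7 times (log2 -0.51) downwards. Values per library are CPM scaled by TMM, which sets the bulk of genes equal between libraries and so measures a share of the RNA, not an amount per cell. In bulk RNA, fewer cells in S phase and less histone mRNA in each cell cannot be told apart.

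**Figure D1:**
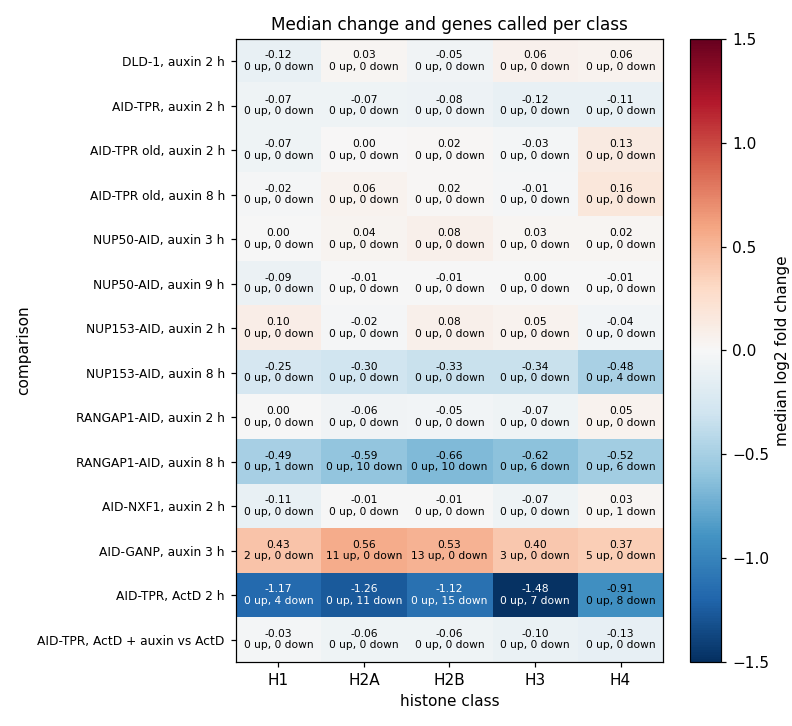
Median log2 fold change of the members of each class with a mean of at least 50 counts (colour and upper number) and the number of members called higher or lower (lower line), for 14 comparisons. In AID-GANP the medians run from 0.37 to 0.56 and all calls are higher, and in RANGAP1-AID at 8 h and after ActD every class median is negative.

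Members of all 5 histone classes rose after loss of GANP. The share called was largest for H2A and H2B genes, but differences between classes were not tested. After 3 h of auxin, 34 of the 54 members tested were called higher and 0 lower, where 3.93% of all genes were called higher and 15.5% in either direction. At any fold 43 passed the adjusted p higher and 2 lower (28.9% of all genes in either direction). The calls were 11 of 14 of H2A, 13 of 15 of H2B, 2 of 4 of H1, 3 of 9 of H3 and 5 of 12 of H4. These shares depend on the fold threshold (log2 0.379). H4C2 (0.375), H4C5 (0.373), H4C8 (0.361) and H3C1 (0.360) lay just below it, and H4C12 (0.384) and H2AC11 (0.391) just above. The members tested include H1-5, H3C14 and H4C15, with mean counts of only 2.33, 4.5 and 2.83 in this comparison. The median log2 fold change was 0.56 for H2A, 0.53 for H2B, 0.43 for H1, 0.40 for H3 and 0.37 for H4, and 0.47 over the 51 members well counted, against 0.01 over all genes. Untreated and auxin libraries did not overlap for 41 members that were higher and 1 that was lower, where 20.1% and 24.9% of all genes did so.

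H2AC4 (ENSG00000278463, older symbol HIST1H2AB, chr6:26033092-26033618, a gene of a single exon) changed the most among the members called. H2AC4 stood at 118, 115 and 147 CPM in untreated libraries and at 247, 198 and 281 CPM with auxin. This gave 0.93 ± 0.13 (SE) on the log2 scale, with adjusted p = 0.000406. All 3 auxin libraries lay above all 3 untreated ones. H2AC8 stood at 27.8, 27.5 and 30.7 CPM in untreated libraries and at 53.1, 44.7 and 55.5 CPM with auxin. The change of H2AC8 was 0.83 ± 0.09 (log2, SE) at adjusted p = 9.52e-05. The groups of this H2A gene did not overlap either. H2BC14 stood at 22.9, 35.2 and 34.6 CPM in untreated libraries and at 46.9, 58.2 and 63.2 CPM with auxin. Its log2 fold change was 0.86 ± 0.16 (SE) with adjusted p = 0.00227. H2BC13 stood at 72.5, 61.5 and 88.6 CPM in untreated libraries and at 124, 102 and 137 CPM with auxin. Both of these H2B genes had no overlap between groups, with a log2 fold change of 0.70 for H2BC13.

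H3C12 stood at 411, 479.8 and 539 CPM in untreated libraries and at 691, 678 and 803 CPM with auxin. This gave 0.60 ± 0.10 (SE) on the log2 scale, with adjusted p = 0.00169. H3C7 followed with 0.53, and neither gene's groups overlapped. H4C13 stood at 105, 112 and 125 CPM in untreated libraries and at 154, 167 and 190.4 CPM with auxin. The change of H4C13 was 0.58 ± 0.09 (log2, SE) at adjusted p = 0.001. H4C11, with 0.59, was the largest change of an H4 gene, at 7.55 to 8.69 CPM in untreated cells and within the error of H4C13. For the linker histones the called genes were H1-3 (log2 0.46) and H1-2 (log2 0.43). H1-4 stood at 437, 587 and 609 CPM in untreated libraries and at 469.8, 554 and 546 CPM with auxin. H1-4 did not pass the test (log2 -0.06, adjusted p = 0.754), and its groups overlapped.

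A pair of members passed the adjusted p in the other direction, and were picked out after their values were seen. H3C6 stood at 17.6, 18 and 19.1 CPM in untreated libraries and at 13.6, 12.7 and 14 CPM with auxin. H3C6 passed the adjusted p but not the fold (log2 -0.44 ± 0.08, adjusted p = 0.00265). No other member holds its stem-loop, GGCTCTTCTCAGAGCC. H2AC11, H2AC15, H2AC20 and H4C13 also have stem-loops of their own, and these genes were called higher. H4C9 stood at 70.0, 77.6 and 88.8 CPM in untreated libraries and at 56.7, 61.1 and 70.2 CPM with auxin. Groups overlapped for H4C9 (log2 -0.33 ± 0.10, adjusted p = 0.035). H4C16 did not pass the test (log2 0.03), and with library sizes alone 2 H4 genes in place of 1 were negative.

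**Figure D2:**
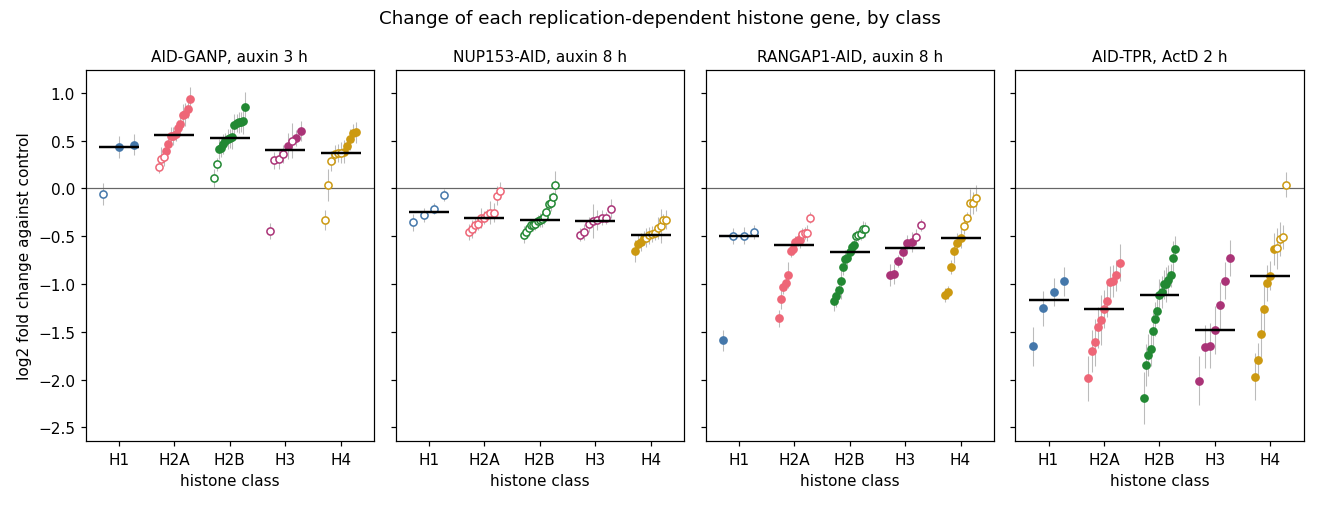
Log2 fold change of each well counted member (circle, with its standard error) against the control libraries, by class, for AID-GANP at 3 h, NUP153-AID at 8 h, RANGAP1-AID at 8 h and ActD at 2 h. Filled circles are called, open ones are not, and black bars are class medians. In AID-GANP only H1-4, H3C6 and H4C9 lie below 0, and in RANGAP1-AID every member does.

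Summed over a class, the rise was 1.399 times for H2A (from 2421 ± 193 to 3386 ± 305 CPM, mean ± SD, n = 3), 1.396 times for H2B, 1.37 times for H3 and 1.303 times for H4, none with overlap between groups. For H1 the sum was 1409 ± 219 CPM untreated and 1696 ± 142 CPM with auxin, a ratio of 1.20, and the groups overlapped. Auxin libraries held 39.3 to 47.5 M counts and untreated ones 26.9 to 32.9 M counts, and the part of depth in these results was not tested. With library sizes alone, which lowers the median of all genes by 0.11 on the log2 scale, 47 of 51 members stayed positive, the median was 0.36, and 24 members were called higher and H3C6 lower.

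**Figure D3:**
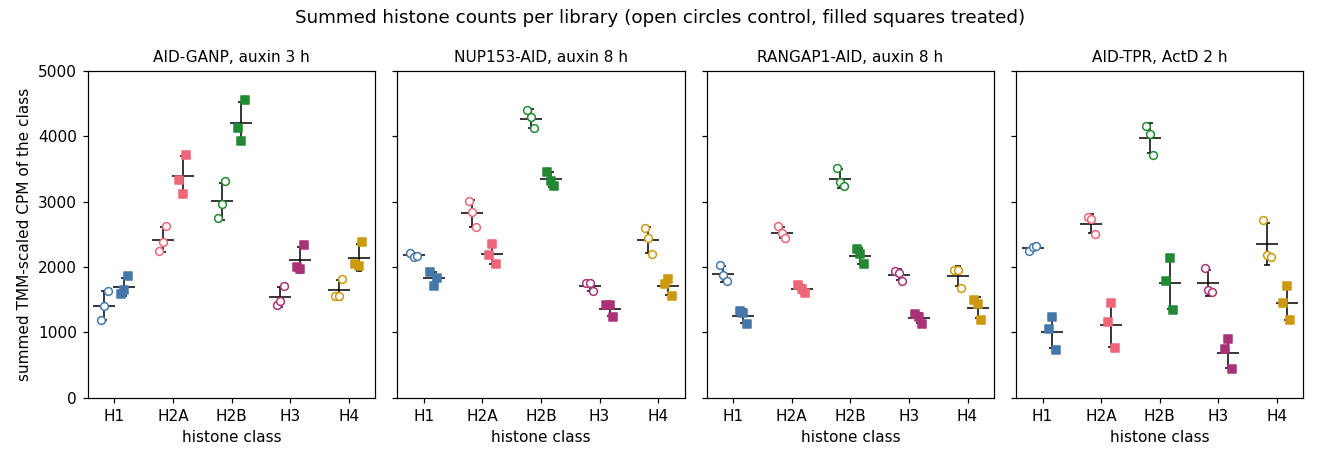
Summed TMM-scaled CPM of each histone class in each library, for the same 4 comparisons, with open circles for control and filled squares for treated libraries, and bars for the mean and SD of 3 libraries. In AID-GANP the H2A sum rose from 2249 to 2630 CPM in untreated cells to between 3112 and 3715 CPM, while ActD lowered every class.

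Of the histone mRNA processing factors taken as a list, 3 of 15 passed the adjusted p higher and 3 lower in AID-GANP cells, with a median of 0.06. LSM11, a protein of the U7 particle, was the single one called and fell by 1.57 on the log2 scale. UPF1, which acts in the decay of histone mRNA, was at -0.42 and the cap-binding NCBP2 at -0.32. The 3 that passed higher, without the fold, were CPSF3 (0.28), ZNF473 (0.25) and SRRT (0.23). Of 10 replacement histones tested, made outside S phase, 0 were called and 1, MACROH2A1, passed the adjusted p by edgeR (log2 0.29). Of 13 genes of S phase 0 were called and 1, MCM2, passed (log2 0.23).

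Whether the rise after 3 h in AID-GANP cells differed from auxin in other lines was tested by interaction terms among lines counted in the same way. A member differed if its adjusted p was below 0.05, at any size of the difference. Such counts follow a looser rule than the calls, which also needed the fold. Against AID-NXF1 at 2 h, 29 members differed and all were higher in AID-GANP (2.62% of all genes differed, 1.36% higher), with 13 of 14 of H2A and 10 of 15 of H2B among them. Against AID-TPR at 2 h, 31 were higher and 1, H3C6, lower (5.77% of all genes, 0.612% higher and 5.15% lower). Against untagged DLD-1 cells at 2 h, 32 were higher and 1, again H3C6, lower (20.1% of all genes, 6.66% higher and 13.4% lower). The median difference was 0.53, 0.54 and 0.51 on the log2 scale. H2AC4 differed by 0.90 ± 0.17, 1.01 ± 0.19 and 0.92 ± 0.18 (SE), with adjusted p = 0.0113, 0.00496 and 0.00174 by edgeR. The 3 tests share the AID-GANP libraries, and their times differ from those of the other lines.

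These counts moved with single libraries. Against AID-NXF1, 15 members differed without AID-NXF1 untreated replicate 1 and 19 without AID-NXF1 auxin replicate 2. Against AID-TPR, 14 differed without AID-TPR untreated replicate 3, 16 without AID-GANP auxin replicate 3, 17 without AID-GANP untreated replicate 1 and 18 without AID-GANP untreated replicate 2. Replicate numbers pair the libraries here, and with the number as a block 47 members differed from AID-NXF1 and 49 from AID-TPR.

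In AID-NXF1 cells after 2 h the median over the well counted histone genes was -0.01 on the log2 scale. H4C9 alone was called lower and 0 higher, where 5.93% of all genes were called lower and 8.12% in either direction. H4C9 stood at 53.9, 49.3 and 54.3 CPM in untreated libraries and at 36.5, 38.3 and 34.9 CPM with auxin. Its log2 fold change was -0.52 ± 0.06 (SE) with adjusted p = 0.000106. Its groups did not overlap, but the fold lay at the threshold, and it was not called without untreated replicate 1, untreated replicate 3 or auxin replicate 3. Over all members 5 were lower and 3 higher without overlap, where 20.9% and 17.6% of all genes were. At any fold 6 passed the adjusted p (21.5% of all genes), and those short of the fold were H1-3 (log2 -0.28), H2AC6 (-0.20), H2BC11 (-0.26), H4C2 (-0.24) and H4C3 (0.24). Of 15 processing factors 2 passed the adjusted p higher and 6 lower. LSM11 fell by 1.13 and alone was called. Lower without the fold were NPAT (-0.40), the coactivator of histone transcription, UPF1 (-0.34), SLBP (-0.31), NCBP2 (-0.30) and CASP8AP2 (-0.18). Higher without the fold were SRRT (0.28) and CPSF3 (0.22).

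Members of all 5 classes fell after 8 h of RANGAP1 loss. At that time 33 of 54 members were called lower and 0 higher, where 6.62% of all genes were called lower and 14.8% in either direction, and, whatever the fold, 49 passed the adjusted p (26.7% of all genes). The calls were 1 of 4 of H1, 10 of 14 of H2A, 10 of 15 of H2B, 6 of 9 of H3 and 6 of 12 of H4. Class medians were -0.66 for H2B, -0.62 for H3, -0.59 for H2A, -0.52 for H4 and -0.49 for H1, against -0.01 over all genes. For 50 members the groups did not overlap, all lower, where 20.6% of all genes did so.

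H1-3 changed the most. H1-3 stood at 317, 262 and 253 CPM in untreated libraries and at 99.7, 97.1 and 79.9 CPM with auxin. This gave -1.59 ± 0.11 (SE) on the log2 scale, with adjusted p = 1.23e-05. The other linker genes fell by 0.46 to 0.50 on the log2 scale, passed the adjusted p and missed the fold. H2AC25 stood at 29.1, 28.3 and 32.1 CPM in untreated libraries and at 12.3, 11.7 and 11 CPM with auxin. The change of H2AC25 was -1.36 ± 0.09 (log2, SE) at adjusted p = 8.56e-06. H2AC4 stood at 147, 139 and 121 CPM in untreated libraries and at 68.3, 60.2 and 53.7 CPM with auxin. Both H2A genes had all auxin libraries below all untreated ones, and H2AC4 had a log2 fold change of -1.16. H2BC11 stood at 406, 384 and 336 CPM in untreated libraries and at 181, 170.4 and 146 CPM with auxin. Its log2 fold change was -1.18 ± 0.10 (SE) with adjusted p = 3.45e-05. H2BC14, a low H2B gene, was at -1.13 on the log2 scale, and in H3 the leading genes were H3C1 (-0.90) and H3C11 (-0.89). H4C16 stood at 91.2, 95.2 and 87.6 CPM in untreated libraries and at 42.4, 45 and 39.4 CPM with auxin. H4C16 (log2 -1.11 ± 0.07, adjusted p = 9.09e-06) and H4C9 (log2 -1.09) led H4, without overlap.

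The members that changed least were of H4. H4C3 stood at 413, 415 and 299.7 CPM in untreated libraries and at 382, 363 and 269.7 CPM with auxin. H4C3, the H4 gene with the highest level per length, did not pass the test (log2 -0.15 ± 0.15, adjusted p = 0.483), nor did H4C4 (log2 -0.15) or H4C11 (log2 -0.10), all picked out after their values were seen. Groups overlapped for all 3. The summed CPM of H4 fell to 0.741 of the untreated level, and those of the other classes to between 0.647 and 0.66.

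At 2 h of auxin in RANGAP1-AID cells, 0 members were called by edgeR where 0.545% of all genes were, 2 members had an unadjusted p under 0.05, DESeq2 called 0, and the median was -0.05. Between 2 h and 8 h, without the untreated libraries that both times share, 32 members were called lower (3.58% of all genes lower, 8.77% either way), with a median of -0.57. H1-3 (log2 -1.305), H2BC14 (-1.18) and H2AC25 (-1.17) fell the most among the well counted members. At any fold 49 passed the adjusted p (15.2% of all genes), and 50 were lower without overlap (16.8% of all genes).

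Other gene lists moved at 8 h in RANGAP1-AID cells. Of 13 S phase genes, 10 passed the adjusted p higher and 0 lower, and 4 were called, UNG (log2 0.63), RRM2 (0.63), SLBP (0.53) and PCNA (0.41), with a list median of 0.28. Of 15 processing factors UPF1 (0.79), NCBP2 (0.65) and SLBP (0.53) were called higher, and NPAT was at -0.45 with adjusted p = 0.00513 by edgeR, short of the fold. The share of cells in S phase was not measured.

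After 8 h of NUP153 loss 4 members were called lower and 0 higher, all H4, where 0.404% of all genes were called lower and 1.32% in either direction. The 4 were H4C2, H4C5, H4C13 and H4C16. The median was -0.48 for H4 and -0.25 to -0.34 for the other classes, 24 members passed the adjusted p at any fold (1.92% of all genes), and 49 of 50 well counted members were negative. Groups did not overlap for 41 members, all lower, where 8.44% of all genes did so, and all 12 H4 genes tested were among them.

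H4C16 stood at 97.9, 87.3 and 85.4 CPM in untreated libraries and at 61, 65.2 and 46.1 CPM with auxin. This gave -0.65 ± 0.12 (SE) on the log2 scale, with adjusted p = 0.0236. H4C2 stood at 417, 403 and 355 CPM in untreated libraries and at 278, 286 and 234 CPM with auxin. In both, each auxin library lay below each untreated one, and the log2 fold change of H4C2 was -0.56. H4C13 (-0.58) and H4C5 (-0.52) did the same. The difference between H4 and the other classes was not tested, and the count moved with single libraries. It was 4 without auxin replicate 1, while 0 members were called without untreated replicate 1, auxin replicate 2 or auxin replicate 3, 1 without untreated replicate 2, and 10 without untreated replicate 3.

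At 2 h in NUP153-AID cells, compared with the same untreated libraries, 0 members were called by edgeR and by DESeq2 (0.0225% of all genes were by edgeR), and 10 had an unadjusted p under 0.05, with a median of 0.04. Between 2 h and 8 h 6 members were called lower (0.786% of all genes lower, 1.93% either way), with a median of -0.40 and 33 past the adjusted p at any fold (3.07% of all genes). They were H2BC12 (log2 -0.62), H1-4 (-0.60), H4C5 (-0.60), H4C8 (-0.54), H3C1 (-0.53) and H2BC18 (-0.52). H2BC12 stood at 582, 561 and 557 CPM at 2 h and at 387, 354 and 364 CPM at 8 h, and the groups did not overlap for any of the 6. In all, 44 members were lower and 1 higher without overlap, where 10.4% and 10.7% of all genes were. Without auxin 2 h replicate 2 the count was 10, and without auxin 8 h replicate 3 it was 3. Of the S phase genes CDC6 (log2 -0.46) passed the adjusted p at 8 h and 0 of 13 were called, and of the replacement histones CENPA was called higher (log2 0.43).

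Loss of TPR and of NUP50 gave no called member. In AID-TPR cells at 2 h edgeR and DESeq2 called 0 members (0.477% of all genes were called by edgeR), 1 had an unadjusted p under 0.05, and the fold changes of well counted members lay between -0.20 and 0.10 on the log2 scale. In the old libraries 0 were called by both tools at 2 h and at 8 h (0.444% and 3.59% of all genes by edgeR), with 0 and 1 at an unadjusted p under 0.05. At 8 h without old auxin replicate 2, H4C9 and H4C11 were called. The class medians lay between -0.12 and 0.16 in these 3 comparisons, of which the 2 with old libraries share their untreated libraries. With library sizes alone the median of all genes moved by -0.11 at 2 h and -0.13 at 8 h in the old libraries.

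In NUP50-AID cells, whose 3 h and 9 h comparisons share untreated libraries, 0 members were called at 3 h and 0 at 9 h by either tool (0.18% and 0.365% of all genes by edgeR), with 0 and 1 at an unadjusted p under 0.05. Well counted members lay between -0.07 and 0.18 at 3 h and between -0.15 and 0.21 at 9 h, on the log2 scale. Between 3 h and 9 h 0 members were called by either tool (0.225% of all genes by edgeR) and 4 had an unadjusted p under 0.05, and between 2 h and 8 h in old AID-TPR cells 0 were called by either tool (0% of all genes) and 0 had an unadjusted p under 0.05. Untagged DLD-1 cells with auxin for 2 h had 0 called members by either tool (0.0561% of all genes by edgeR) and 5 at an unadjusted p under 0.05. Their well counted members lay between -0.23 and 0.16, on the log2 scale.

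**Figure D4:**
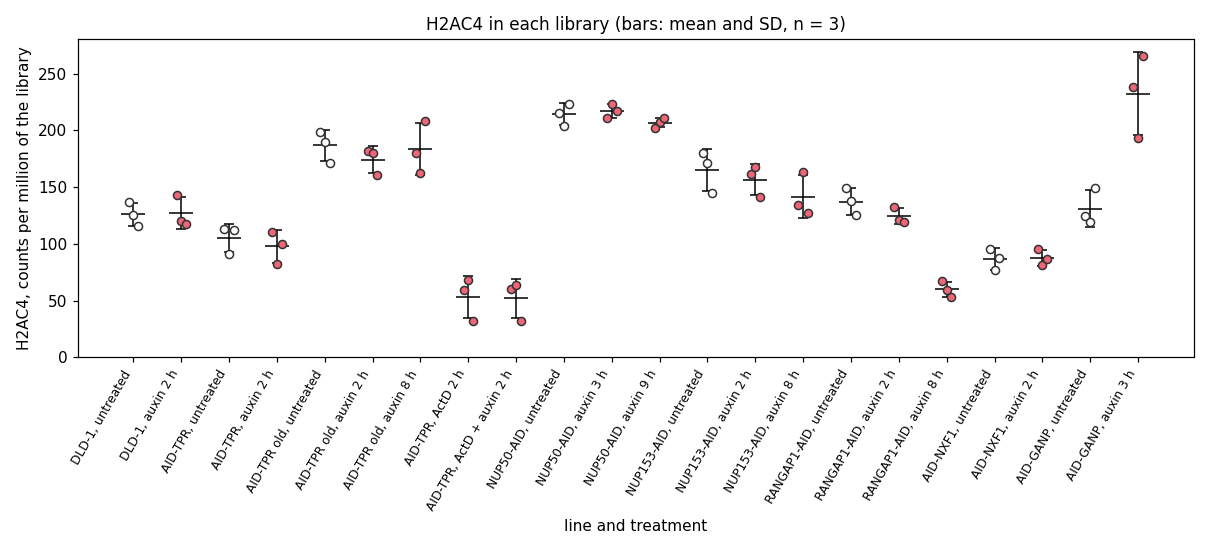
H2AC4 in each of the 66 libraries in CPM without TMM scaling, by line and treatment, with open circles for untreated and filled circles for treated libraries and bars for mean and SD of 3. The AID-GANP auxin libraries at 193 to 265 CPM lie above their untreated ones at 119 to 149 CPM, and the RANGAP1-AID 8 h and ActD libraries lie lowest, at 31.9 to 67.9 CPM.

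ActD lowered nearly all histone mRNAs relative to the rest of the RNA. After 2 h, 45 of 54 members were called lower and 0 higher, where 12.3% of all genes were called lower and 21.1% in either direction, 46 passed the adjusted p at any fold (25.8% of all genes), and the median over 48 well counted members was -1.20 against 0.00 over all genes. Class medians were -1.48 for H3, -1.26 for H2A, -1.17 for H1, -1.12 for H2B and -0.91 for H4. All 4 H1 genes and all 15 H2B genes tested were called, with 11 of 14 of H2A, 7 of 9 of H3 and 8 of 12 of H4. For all 48 members with separate groups the ActD libraries were the lower ones, where 21.8% of all genes did so. H4C15 was called at a mean of 11.5 counts, and H2AC7, H2AC15, H2AC17, H3C4 and H3C14 were too low to judge.

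H2BC11 stood at 535, 445 and 391 CPM in untreated libraries and at 102, 142 and 57.2 CPM with ActD. The change of H2BC11 was -2.19 ± 0.27 (log2, SE) at adjusted p = 0.000611. H3C12 stood at 375, 331 and 352 CPM in untreated libraries and at 95.1, 119 and 49.4 CPM with ActD. These H2B and H3 genes had no overlap between groups, and the log2 fold change of H3C12 was -2.01. ActD replicate 3 was the lowest of its group for both, and also for H2AC4, H2AC16, H4C2 and H4C3. ActD libraries held 25.1 to 55.4 M counts, replicate 3 the most, and untreated ones 23.1 to 27.9 M counts. The part of depth in the ActD results was not tested. H2AC16 stood at 60.3, 61.8 and 62.2 CPM in untreated libraries and at 16.5, 21.1 and 9.42 CPM with ActD. Its log2 fold change was -1.99 ± 0.23 (SE) with adjusted p = 0.000475. H4C2 stood at 404, 335 and 291 CPM in untreated libraries and at 89.6, 121 and 53.6 CPM with ActD. H4C2 had a log2 fold change of -1.97, and groups were apart for this gene too. Further leading members were H2BC8 (-1.85), H4C9 (-1.80), H2AC4 (-1.70), H3C11 (-1.66), H1-3 (-1.65) and H1-2 (-1.25).

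H4 again held the members that changed least. H4C3 stood at 533, 423 and 395 CPM in untreated libraries and at 457, 512 and 419.7 CPM with ActD. Groups overlapped for H4C3 (log2 0.04 ± 0.13, adjusted p = 0.901), the only well counted member with a positive value, which was negative with library sizes alone. H4C1 passed the adjusted p without the fold (log2 -0.50 ± 0.13, adjusted p = 0.0165), and H4C4 (log2 -0.52) and H4C11 (log2 -0.62) did not pass it. Summed over the class, H4 fell to 0.617 of the untreated level and H3 to 0.395, with H1, H2A and H2B between 0.421 and 0.442. By stem-loop, the 8 counted H4 genes with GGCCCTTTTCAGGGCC had a median of -0.63 and ranged from -1.97 to 0.04, while the 28 genes of other classes with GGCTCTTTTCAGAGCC had a median of -1.27 and ranged from -2.01 to -0.72.

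H2AZ1 (log2 0.69), MACROH2A2 (0.53) and H3-3B (0.43), replacement histones, were called higher of 10 tested, and 0 were called lower. Of the processing factors NCBP2 (0.44) was called higher, and ZNF473 (-0.92), a zinc finger protein of the U7 particle, and LSM11 (-0.52) were called lower. Of 13 S phase genes 0 passed the adjusted p by edgeR. The ActD libraries are not labelled old, their controls also serve the old AID-TPR auxin comparisons, and with library sizes alone the median of all genes moved by -0.13. Auxin on top of ActD changed no member by edgeR or DESeq2: 0 were called, 0 had an unadjusted p under 0.05, 0% of all genes were called, and fold changes of well counted members lay between -0.17 and 0.14 on the log2 scale.

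The comparisons of AID-GANP at 3 h, RANGAP1-AID at 8 h and ActD at 2 h share no library. Of the 34 members higher in AID-GANP, 20 (58.8%) were lower in RANGAP1-AID, where they were 60.6% of those called, and 28 (82.4%) were lower after ActD, 62.2% of those called. Of all 54 members tested, 33 were lower in RANGAP1-AID and 45 after ActD, so these shares are close to those over all members. RANGAP1-AID and ActD had 30 lower members in common, 90.9% and 66.7% of their calls. Over 47 genes well counted in all 3, the log2 fold changes of RANGAP1-AID and ActD had Pearson r = 0.64 and Spearman rho = 0.67. For AID-GANP against RANGAP1-AID the values were r = -0.15 and rho = -0.23, and against ActD r = -0.09 and rho = -0.12. These are across genes, which share their libraries within a comparison and are not independent replicates.

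**Figure D5:**
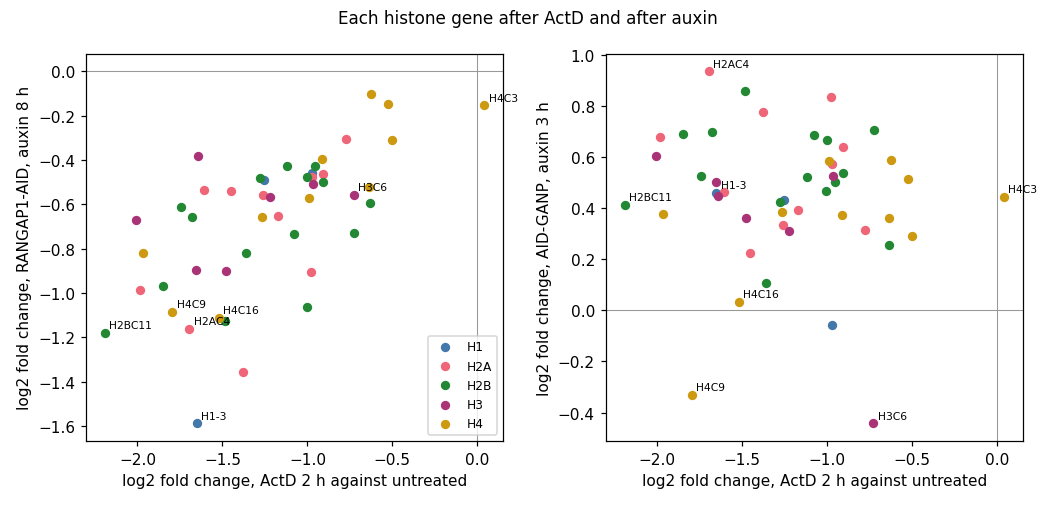
Log2 fold change of each well counted histone gene after ActD for 2 h (horizontal axis) against that in RANGAP1-AID cells after 8 h of auxin (left) and in AID-GANP cells after 3 h (right), coloured by class. H4C3 stands at the right edge of both panels, H1-3 and H2AC25 at the bottom of the left one. In the right panel r = -0.09 over 47 genes.

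Members were also grouped by their place in the genome. In AID-GANP cells 13 of 15 counted members of the chromosome 6 cluster that starts at 27807479 were called, with a median of 0.59, and 12 of 23 of the cluster that starts at 25723397, with a median of 0.43. In RANGAP1-AID cells their medians were -0.61 and -0.56, and after ActD -1.15 and -0.98. Members of more than 1 exon block (H2AC1, H2AC6, H2AC25, H2BC4, H2BC5, H2BC6, H2BC11, H2BC15, H2BC18, H3C6, H3C12, H4C8, H4C14, H4C15 and H4C16) had medians of 0.42, -0.58 and -1.18 over the 12 counted, and those of a single exon 0.51, -0.59 and -1.20. Differences between these groups were not tested, and the clusters differ in the classes of their members.

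Some members cannot be measured alone. At least 10% of the read-length stretches of H2AC13, H2AC14, H2AC20, H2BC12, H2BC18, H2BC26, H3C13, H3C14, H4C11, H4C12 and H4C15 occur in another transcript, and H2AC6, H2AC7, H2AC17, H2AC21, H2BC4, H2BC6, H2BC18, H2BC26, H3C4, H3C12 and H4C8 overlap another gene. Over the other 34 members tested, chosen after the data were seen, 21 were called higher in AID-GANP cells, 23 lower in RANGAP1-AID cells at 8 h, 30 lower after ActD and the same count of 4 lower in NUP153-AID cells at 8 h. The 12 members below the filter (H1-1, H1-6, H2AC1, H2BC1, H2BC3, H2BC10, H2BC12L, H3C8, H3C15, H4C6, H4C7 and H4C14) had no more than 46 counts in any library.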

How the data were processed

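Total RNA depleted of ribosomal RNA was sequenced in 66 libraries of DLD-1 cells, 3 in each of 22 groups. The authors deposited raw read counts per gene, and the submitters' processing notes name CASAVA 1.8.2, STAR 2.6.1c, featureCounts 1.5.2 and GRCh38. The strand setting is not given in the sources used here, so antisense or overlapping reads cannot be told apart. The deposited counts fall into 2 ways of counting, with 33 libraries each, and every comparison stays within 1 of them. Gene names are those of GENCODE and matched 56948 of 58051 identifiers.

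Genes over 1 CPM in more than 5% of the 60 libraries without ActD (at least 4) were kept, which left 17812. Each comparison was fitted on its own 6 libraries, or 12 for an interaction, with edgeR 4.0.16 in R 4.3.3 (TMM, quasi-likelihood test, Benjamini-Hochberg adjustment), and a standard error is the log2 fold change over the square root of F. Thresholds for calls were an adjusted p below 0.05 with a change past 1.3 times upwards or 0.7 times downwards. Interaction terms needed the adjusted p alone, at any fold. In tagged lines without ActD, the 10 genes that auxin changed in untagged cells were not called. Tables and sequences used Python 3.11.15 and pandas 2.3.3. The fits were tested on simulated data. DESeq2 1.42.0, other scalings, filters, a replicate block, 1 fit over 60 libraries and leaving out each library were alternatives.

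Genes named in each comparison were all called members where there were at most 12, otherwise the 2 of each class and direction with the largest change and a mean of at least 50 counts, with H2AC4, the 3 members of each class highest per length over all untreated libraries, and members with shared reads or several exons. Ranking levels within each way of counting, which also names H2AC17 and H4C5, was chosen after their values were seen. The genes, lists and tests were chosen with earlier results of these data known. Same-numbered libraries deviated together, with every pair's correlation over 0.1, for AID-TPR at 2 h (lowest r = 0.39), NUP153-AID at 2 h (0.53), RANGAP1-AID at 2 h and 8 h (0.37 and 0.24), AID-NXF1 (0.21), AID-GANP (0.50), auxin on top of ActD (0.60), NUP50-AID 9 h against 3 h (0.39) and RANGAP1-AID 8 h against 2 h (0.33).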

Additional observations from a re-analysis of the deposited data

Results flagged for a closer look

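The change of histone genes in AID-GANP cells differed from that in other lines by the test of the difference itself, with edgeR's interaction term. At an adjusted p below 0.05 and any size of difference, it did so for 29 members against AID-NXF1 (2.62% of all genes). Against AID-TPR 32 members differed (5.77% of all genes), and against untagged DLD-1 cells 33 (20.1%). H3C6 was the member that was lower in AID-GANP in the latter 2 tests, and all others were higher. The lines were sampled at 3 h and 2 h, so line and time cannot be told apart.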

How the results depend on the processing

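Of the counts of called members under all alternatives, 277 stayed within 1.5 times the reported count and 26 moved further. The 277 include counts of 0 that stayed at 0 in comparisons without a called member. Of the values of named members, 816 kept their side of the call and 40 kept direction but lost the call, and no called value turned its direction. These are the called members named by size of change and H2AC4, not the members highest per length. H2AC4 is among them also in comparisons where it was not called. With no filter on low counts, 1 member was called in NUP153-AID at 2 h, 1 in RANGAP1-AID at 2 h and 2 in AID-NXF1. At any fold, 24 were called in NUP153-AID at 8 h and 6 in AID-NXF1, and 1 fit over 60 libraries called 0 in AID-NXF1. With library sizes alone 3 were called in NUP153-AID at 8 h against 2 h. With the replicate number as a block, 47 members differed between AID-GANP and AID-NXF1 and 49 between AID-GANP and AID-TPR, and the block moved no other count by over 1.5 times. Without members that share reads or overlap another gene, a choice made after seeing the data, 21 were called in AID-GANP. Leaving out 1 library gave 0 to 10 in NUP153-AID at 8 h, 3 to 10 for 8 h against 2 h, 0 to 1 in AID-NXF1, 0 to 2 in old AID-TPR at 8 h, 26 to 42 in AID-GANP, 27 to 38 in RANGAP1-AID at 8 h, 26 to 37 for RANGAP1-AID 8 h against 2 h and 43 to 48 after ActD. The tests of difference gave 15 to 32 against AID-NXF1, 14 to 38 against AID-TPR and 30 to 41 against DLD-1. The cause of these moves was not tested. No paired analysis was possible for ActD because its libraries and their controls share no replicate labels.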
